A study of Mus musculus with 30 samples.

Results

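The genes described are 4 glial and myelin genes of the nerve bundles under the mouse olfactory epithelium: Mbp, Pmp22, S100b and Fabp7. They were taken by symbol from the probe sets annotated to exactly 1 gene, which gave 6 probe sets for the 4 genes, of 8251 genes with such a probe set. Of these 6, 5 passed the filter on low signals and were tested, among 6968 probe sets in all. The sixth, a second probe set for Pmp22, had a mean signal of 11.8 and lay at or below the floor of 113.7 in all 30 arrays, so it gave no measurement of Pmp22.

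The study measured gene expression on Affymetrix MG-U74Av2 arrays in microdissected olfactory epithelium of 6-week-old mice after bilateral bulbectomy, in which both olfactory bulbs are taken out, where the axons of the olfactory sensory neurons end. The groups were SR-A mutant mice at 0, 2, 8, 16 and 48 h and wild type mice at the same times, with 3 arrays each. SR-A is the class A scavenger receptor of macrophages, and both genotypes were bulbectomised. The labels do not give the allele or the strain, do not tell if mice at 0 h had the operation, and do not tell whether arrays with one replicate number share a mouse, so a p-value measures the spread between these arrays, which may be technical.

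The directions between genotypes rest on the labels. Msr1, the gene of SR-A, had a median signal of 444.5 in the mutant-labelled arrays and 161 in the wild-type-labelled arrays on its brighter probe set, which a loss of its transcript would not give, so it does not check the labels. The SR-A mutant-labelled 2 h arrays stood apart on 1 of 2 controls of RNA quality. On the Gapdh control probe sets the 3' end exceeded the 5' end by 5.59 on the log2 scale in replicate 1, by 0.152 in replicate 2 and by 1.27 in replicate 3, against -0.311 to -0.128 in the other 27 arrays. On the actin control the difference was 2.27, 1.02 and 0.427 in replicates 1, 2 and 3. The other 27 arrays had 0.447 to 1.11 there, so only replicate 1 lay above them. Each call of the 5 probe sets that compares this group is given with replicate 2 as its only array too, by effect size. With 1 array the standard error is larger by design, so a call lost there would not tell what RNA quality did. The other calls use these 3 arrays as well, through the estimate of the spread that all groups share.

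Olfactory axons are unmyelinated. They run below the epithelium in bundles that are wrapped by olfactory ensheathing glia, a relative of the Schwann cell, while branches of the trigeminal nerve in the same tissue include myelinated fibres with Schwann cells. Mbp encodes myelin basic protein, which holds the membrane layers of compact myelin together, and its locus also makes Golli transcripts, found in neurons and immune cells. Pmp22 encodes a membrane protein of compact peripheral myelin and is also expressed by fibroblasts. S100b encodes a calcium-binding protein of Schwann cells and ensheathing glia, and Fabp7 encodes brain lipid-binding protein, a fatty acid carrier of radial and ensheathing glia.

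By mean signal over 30 arrays, Fabp7 stood at the percentile 97.2 of all probe sets, Pmp22 at 72.8, the brighter Mbp probe set at 70.9, S100b at 62.3 and the dimmer Mbp probe set at 44.6. Signals of different probe sets do not rank the genes by transcript number. Of 14 other genes of myelin and its synthesis on the array, 7 were tested, among them Mal, Cldn11, Cd9 and Cd82, which were above the floor in all 30 arrays. Cnp and Mog, an enzyme and a surface protein of myelin, were at or below the floor in all 30 arrays, and Mobp, an oligodendrocyte myelin protein, in 24. Mag, an adhesion protein of the myelin sheath, averaged a signal of 332 and was above the floor in every array, and Egr2, the transcription factor of myelinating Schwann cells, 269.7, both too dim for the test. Among genes shared by Schwann cells and ensheathing glia, the transcription factor Sox10 and the neuregulin receptor Erbb3 were measured in every group. Omp, the marker of mature olfactory neurons, averaged a signal of 26720.4, with 128.5 in its lowest array and 40154.6 in its highest.

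Each change is the log2 difference between 2 group means of 3 arrays ± its standard error. The adjusted p is limma's after the Benjamini-Hochberg procedure across the 6968 tested probe sets, and a change is called at an adjusted p under 0.05.

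**Figure D1:**
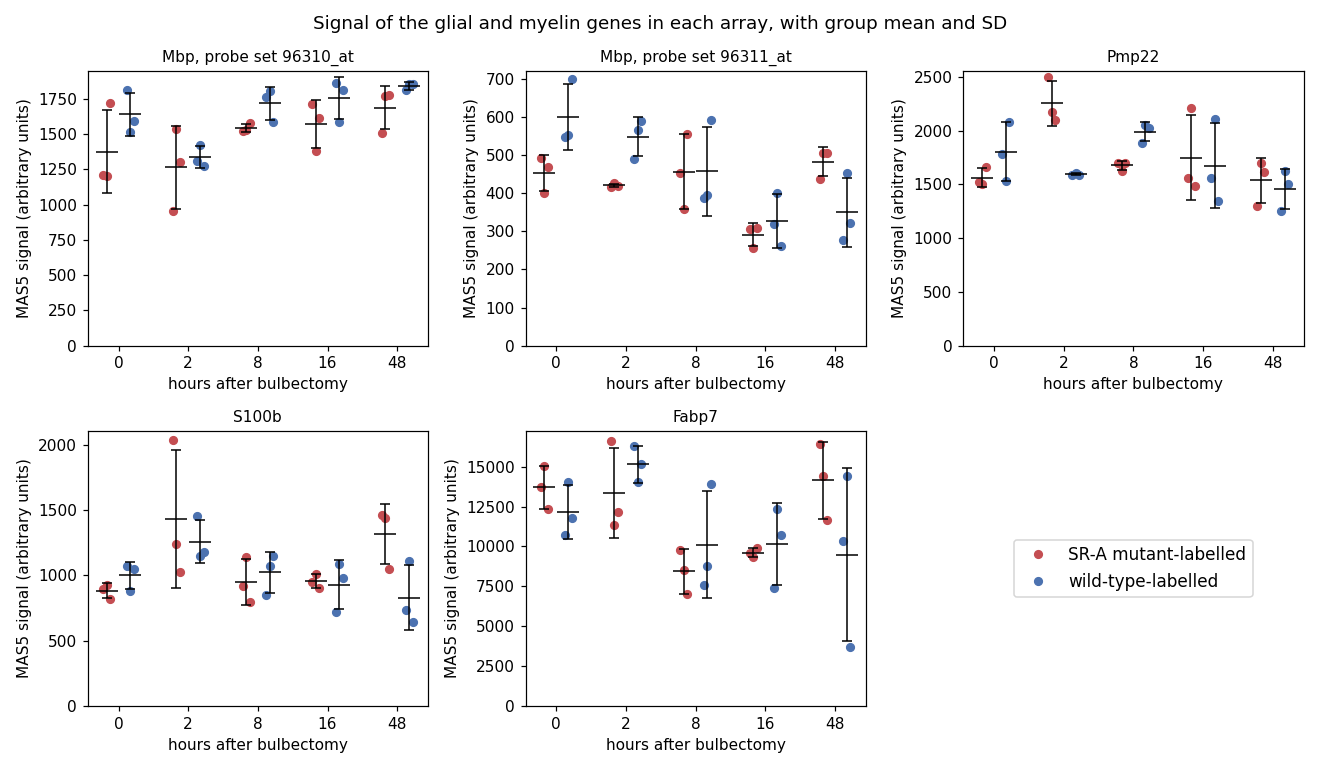
MAS5 signal (arbitrary units, linear axes from 0) of the 5 tested probe sets against hours after bulbectomy, SR-A mutant-labelled arrays left of wild-type-labelled ones at each time. Points are arrays, and bars are the group mean and SD (n = 3). The dimmer Mbp probe set is lowest at 16 h in both genotypes, with group means of 291 and 328, and Fabp7 has its lowest array, at 3668, among the wild-type-labelled arrays at 48 h.

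Among the myelin genes, Mbp gave the changes that held best when arrays were left out, and its 2 probe sets did not move together. The probe sets were designed from different sequence records of the gene, and which transcripts each of them reads was not determined here. Mbp lies on chromosome 18. The dimmer probe set had signals of 547, 553 and 699.7 in the wild-type-labelled arrays at 0 h, 491, 566 and 589 at 2 h, 387, 394.5 and 593 at 8 h, 320.4, 402 and 261 at 16 h, and 278, 452 and 322 at 48 h. All 3 arrays at 16 h and all 3 at 48 h lay below the 3 arrays at 0 h.

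The change of this Mbp probe set in the wild-type-labelled arrays had a size of -0.89 ± 0.19 (adjusted p = 0.0074) at 16 h and of -0.80 ± 0.19 (adjusted p = 0.00524) at 48 h. It was the only 1 of the 5 probe sets called at each of these times, against 6.53% of all tested probe sets at 16 h and 15% at 48 h. The filter asked for signals above 572 in 3 or more arrays. This probe set passed it only through wild-type-labelled arrays, at 699.7 (0 h), 589 (2 h) and 593 (8 h). The falls are thus measured from a group through which the probe set entered the test. Without a filter both falls were called too. The fall at 16 h was called with each of the 6 arrays left out in turn (adjusted p from 0.00851 to 0.0495). The fall at 48 h was called in 5 of 6 such fits, and was -0.64 (adjusted p = 0.0514) without wild-type-labelled 48 h replicate 1.

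In the SR-A mutant-labelled arrays the same Mbp probe set had signals of 493, 401 and 469 at 0 h, 417, 426 and 419.8 at 2 h, 454, 359 and 557 at 8 h, 307, 256 and 309.5 at 16 h, and 439, 505 and 505 at 48 h. The 16 h arrays again lay below the 0 h arrays, while the 48 h arrays overlapped them. The change was -0.64 ± 0.19 at 16 h, which missed the threshold (adjusted p = 0.0576), and 0.09 ± 0.19 at 48 h (adjusted p = 0.836). The change at 48 h was 0.89 ± 0.27 higher in the mutant-labelled than in the wild-type-labelled arrays, and this difference of changes also missed the threshold (adjusted p = 0.0708, with 2.86% of tested probe sets called). So a fall of Mbp on this probe set was called in the wild-type-labelled arrays, and a difference between the genotypes was not.

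The brighter Mbp probe set showed no such fall. Its signals in the SR-A mutant-labelled arrays were 1210, 1199.9 and 1716.5 at 0 h, 953, 1533 and 1305 at 2 h, 1519, 1531 and 1576 at 8 h, 1709, 1381 and 1615.5 at 16 h, and 1509, 1769 and 1778 at 48 h. The wild-type-labelled arrays gave 1811, 1517 and 1591 at 0 h, 1309, 1424 and 1274 at 2 h, 1762, 1806 and 1584 at 8 h, 1860.5, 1585 and 1814 at 16 h, and 1809, 1855 and 1858 at 48 h. The lowest group means were at 2 h in both genotypes and the highest at 48 h in both. None of its changes from 0 h was called: at 48 h it was 0.31 ± 0.14 in the mutant-labelled arrays (adjusted p = 0.177) and 0.17 ± 0.14 in the wild-type-labelled arrays (adjusted p = 0.47), so at 48 h the Mbp probe sets had opposite signs in the wild-type-labelled arrays.

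Averaged over the 5 times, the brighter Mbp probe set was 0.16 ± 0.064 lower in the mutant-labelled arrays (-0.16, adjusted p = 0.0475), with group means below the wild-type-labelled ones at each of the 5 times. It was the only 1 of the 5 probe sets called over all times, where 35.7% of tested probe sets were called. The call was held in 9 of 30 fits that left out 1 array. With replicate 2 as the only mutant-labelled 2 h array the difference was -0.10. The dimmer Mbp probe set was -0.09 ± 0.084 over all times (adjusted p = 0.439).

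Pmp22, the other gene of compact peripheral myelin, lies on chromosome 11 from 63128982 to 63159547 (GRCm38.p6). On its tested probe set the signals in the SR-A mutant-labelled arrays were 1523, 1501 and 1665 at 0 h, 2494, 2171 and 2099 at 2 h, 1701, 1626 and 1699 at 8 h, 1555, 2207 and 1486 at 16 h, and 1299, 1699.5 and 1614 at 48 h. The wild-type-labelled arrays gave 1784, 1535 and 2084 at 0 h, 1584, 1606 and 1591 at 2 h, 1887, 2051 and 2023 at 8 h, 1558, 2110.3 and 1348 at 16 h, and 1255.5, 1619 and 1499.7 at 48 h. The mutant-labelled 2 h arrays were higher than every other group mean and did not overlap the 0 h arrays of their genotype or the wild-type-labelled 2 h arrays.

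Pmp22 rose by 0.53 ± 0.15 at 2 h in the mutant-labelled arrays (adjusted p = 0.0208), and at that time it was 0.50 ± 0.15 higher there than in the wild-type-labelled arrays (adjusted p = 0.0438). The difference between the genotypes in the change from 0 h was 0.69 ± 0.22 (adjusted p = 0.0436, with 10.6% of tested probe sets called). Of the 5 probe sets, Pmp22 and S100b were called in the first comparison, where 17.7% of tested probe sets were called, and Pmp22 alone in the second, where 9.03% were. The group is the one with the raised Gapdh 3' to 5' differences given above, whose part in the result was not tested. With replicate 2 as the only array of that group, Pmp22 was 0.48 above 0 h and 0.45 above wild type.

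Beyond 2 h, Pmp22 stayed near its 0 h level. Its largest change at a later time was -0.30 ± 0.15 at 48 h in wild-type-labelled arrays (adjusted p = 0.202), and it was -0.03 ± 0.15 in the mutant-labelled arrays at that time (adjusted p = 0.933). Pmp22 is also a fibroblast gene, and the summed signal of 7 fibroblast markers averaged 84560 at 48 h against 131919 at 0 h in the mutant-labelled arrays, and 53066 at 48 h against 113930 at 0 h in wild-type-labelled arrays. The markers did not move as one: Col1a1, Col1a2, Col3a1 and Lum, 4 of the 7, fell in both genotypes on their brightest probe sets. Of all tested genes, 5.17% fell in the mutant-labelled and 7.25% in the wild-type-labelled arrays. Another Col1a1 probe set gave -0.21 (adjusted p = 0.644) in the mutant-labelled and -0.62 (adjusted p = 0.07) in the wild-type-labelled arrays. Another of Col1a2 gave 0.22 (adjusted p = 0.229) and -0.09 (adjusted p = 0.647). The other Col3a1 probe sets fell in both genotypes. Dcn was 0.01 ± 0.12 (adjusted p = 0.958) in the mutant-labelled and -0.00 ± 0.12 (adjusted p = 0.988) in the wild-type-labelled arrays, and Pdgfra was 0.35 ± 0.20 (adjusted p = 0.277) in the mutant-labelled and 0.22 ± 0.20 (adjusted p = 0.506) in the wild-type-labelled arrays. Mgp was -0.28 ± 0.20 (adjusted p = 0.424) in the mutant-labelled arrays and rose by 0.78 ± 0.20 (adjusted p = 0.0104) in the wild-type-labelled arrays. The part of fibroblasts in the Pmp22 signal was not tested.

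**Figure D2:**
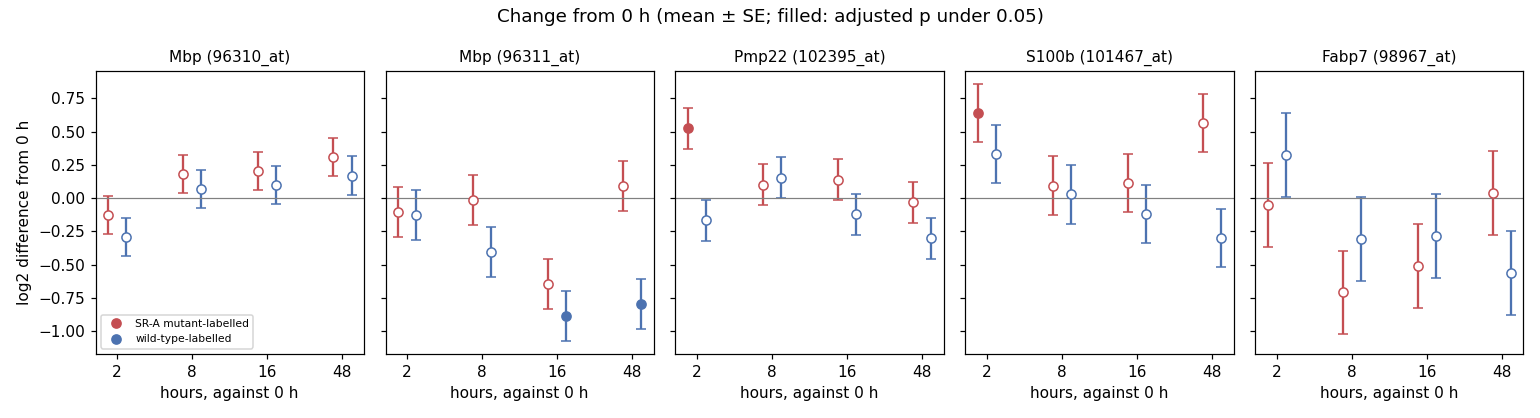
Change from 0 h of the 5 tested probe sets as a log2 difference of group means (points) with its standard error (bars), at 2, 8, 16 and 48 h, SR-A mutant-labelled left of wild-type-labelled. Filled points have an adjusted p under 0.05: the dimmer Mbp probe set in the wild-type-labelled arrays at 16 h (-0.89) and 48 h (-0.80), and Pmp22 (0.53) and S100b (0.64) in the mutant-labelled arrays at 2 h.

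S100b and Fabp7 mark the glial cells themselves rather than myelin. Their signals went together from array to array, as given below, and the promoters of this pair are shown as a description. S100b lies on chromosome 10 from 76253836 to 76261319 and Fabp7 on chromosome 10 from 57784923 to 57788450 (GRCm38.p6). The 250 bases before each start are from RefSeq on that build, on the plus strand, 5′ to 3′, at chr10:76253586-76253835 for S100b and chr10:57784673-57784922 for Fabp7. Capitals mark the letters CCAAT on either strand, which read ATTGG on the minus strand.
S100b: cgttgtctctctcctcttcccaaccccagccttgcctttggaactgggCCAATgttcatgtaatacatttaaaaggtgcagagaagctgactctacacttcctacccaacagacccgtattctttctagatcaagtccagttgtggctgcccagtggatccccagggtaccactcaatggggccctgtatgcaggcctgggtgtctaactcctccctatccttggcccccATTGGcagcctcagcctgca
Fabp7: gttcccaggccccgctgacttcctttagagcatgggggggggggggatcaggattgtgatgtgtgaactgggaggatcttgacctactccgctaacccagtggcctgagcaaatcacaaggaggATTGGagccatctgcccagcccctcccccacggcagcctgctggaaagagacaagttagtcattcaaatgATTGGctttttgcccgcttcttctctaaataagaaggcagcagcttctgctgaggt
CCAAT began 202 and 20 bases before the start of S100b and 126 and 56 bases before the start of Fabp7. It was chosen after the letters were seen, and 33.8% of 32851 promoter windows of this length hold it on either strand. Promoter windows of Pmp22 hold it too, as ATTGG, 47 and 219 bases before a start. Pmp22 gave r = 0.17 with S100b and -0.07 with Fabp7. A part of these letters in the relation of S100b and Fabp7 was not tested. ACAAAG or ACAATG, letters that SOX factors bind, and TATAAA were searched on both strands too. They are in 25.2% and 12.4% of all windows and not in these 2.

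By group mean S100b was highest at 2 h in both genotypes and, in the mutant-labelled arrays, high again at 48 h. In the mutant-labelled arrays the medians had the other order, 1241 at 2 h and 1437.6 at 48 h. The 2 h mean there, 1435, includes the array at 2035, which has the Gapdh difference of 5.59. Its signals in the SR-A mutant-labelled arrays were 897, 929.6 and 819 at 0 h, 2035, 1241 and 1029 at 2 h, 917, 1144 and 794 at 8 h, 952, 1013 and 903.5 at 16 h, and 1463, 1438 and 1051 at 48 h. The wild-type-labelled arrays gave 1071, 879 and 1049.7 at 0 h, 1453, 1148 and 1181 at 2 h, 849.7, 1072.5 and 1151 at 8 h, 723, 1091 and 977.5 at 16 h, and 735, 1112 and 645 at 48 h. In both genotypes the 2 h arrays lay above the 0 h arrays without overlap, and the mutant-labelled 48 h arrays did so too.

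S100b rose by 0.64 ± 0.22 at 2 h in the mutant-labelled arrays (adjusted p = 0.0442). In the wild-type-labelled arrays it was 0.33 ± 0.22 above 0 h, which was not called (adjusted p = 0.466), and 0 of the 5 probe sets were called there, against 0.574% of all tested ones, with 0 at an unadjusted p under 0.05 in limma. The difference between these changes was 0.31 ± 0.31 (adjusted p = 0.544). The value of 2035 belongs to the array with the Gapdh difference of 5.59. With replicate 2 as the only mutant-labelled 2 h array S100b was 0.49 above 0 h.

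At 48 h S100b averaged 1317 ± 231 in the mutant-labelled arrays and 831 ± 248 in the wild-type-labelled arrays (SD, n = 3 each). The difference was 0.69 ± 0.22 (adjusted p = 0.0331), although the lowest mutant-labelled array, at 1051, lay below the highest wild-type-labelled array, at 1112. S100b was the only 1 of the 5 probe sets called, where 16.3% of tested probe sets were. Against 0 h, S100b was 0.56 ± 0.22 higher in the mutant-labelled arrays (adjusted p = 0.105) and 0.30 ± 0.22 lower in the wild-type-labelled arrays (-0.30, adjusted p = 0.391), and the difference between these changes was 0.87 ± 0.31 (adjusted p = 0.133). The call between genotypes was lost without wild-type-labelled 48 h replicate 1 (0.62, adjusted p = 0.106) or 3 (0.53, adjusted p = 0.181) and without mutant-labelled 48 h replicate 1 (0.61, adjusted p = 0.0946) or 2 (0.62, adjusted p = 0.117).

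Fabp7 gave the brightest signal of the 5 probe sets, with its lower group means at 8 and 16 h in the mutant-labelled arrays and from 8 h on in the wild-type-labelled arrays. Its signals in the SR-A mutant-labelled arrays were 13724, 15053 and 12345 at 0 h, 16593, 11314 and 12168 at 2 h, 9798, 8528 and 6988 at 8 h, 9578, 9357 and 9886 at 16 h, and 16436, 14389.7 and 11631 at 48 h. The wild-type-labelled arrays gave 10687, 14022 and 11767 at 0 h, 16315, 14014 and 15149.5 at 2 h, 7594, 8781.5 and 13917 at 8 h, 7363, 12369 and 10747 at 16 h, and 10362, 14402 and 3668 at 48 h. The mutant-labelled arrays at 8 and 16 h lay below those at 0 h without overlap, and those at 48 h overlapped the 0 h arrays.

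None of the changes of Fabp7 was called. In the mutant-labelled arrays it was -0.71 ± 0.32 (adjusted p = 0.3) at 8 h, -0.51 ± 0.32 (adjusted p = 0.418) at 16 h and 0.04 ± 0.32 (adjusted p = 0.958) at 48 h. The changes in the wild-type-labelled arrays were -0.31 ± 0.32 (adjusted p = 0.919) at 8 h, -0.28 ± 0.32 (adjusted p = 0.646) at 16 h and -0.56 ± 0.32 (adjusted p = 0.25) at 48 h. Replicate 3 set the last value: without it the change was 0.02 (adjusted p = 0.971), and without replicate 2 it was -0.97 (adjusted p = 0.0403). In that replicate Sox10 had a signal of 1610.4 and Erbb3 of 4882, against 1755.5 and 1581 for Sox10 and 6559.9 and 4861 for Erbb3 in replicates 1 and 2. S100b, at 645, and Apoe, at 15122, each had their lowest signal of the 30 arrays in that same replicate, as Fabp7 did, so some glial genes were low in it and others were not. Between genotypes at 48 h Fabp7 differed by 0.78 ± 0.32 (adjusted p = 0.0959), and by 0.20 (adjusted p = 0.685) without that replicate.

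S100b and Fabp7 rose and fell together across arrays. Over the 27 arrays other than the mutant-labelled 2 h arrays, Pearson's r of log2 signal was 0.70 (permutation p = 4e-05, two-sided, 0.0004 after Benjamini-Hochberg adjustment over 10 pairs of probe sets) and Spearman's rho was 0.63 (permutation p = 0.00054, adjusted 0.0054). Without the 2 arrays farthest from the median of S100b, r was 0.57. It was 0.50 over 12 mutant-labelled arrays and 0.80 over 15 wild-type-labelled arrays. The deviations from the group means, pooled over the groups, gave r = 0.70 too. No r was computed within a single group, and this pooled r was not computed without wild-type-labelled 48 h replicate 3. That array had the lowest signal of both genes. The permutations shuffled the 27 arrays without regard to group. With all 30 arrays r was 0.69.

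**Figure D3:**
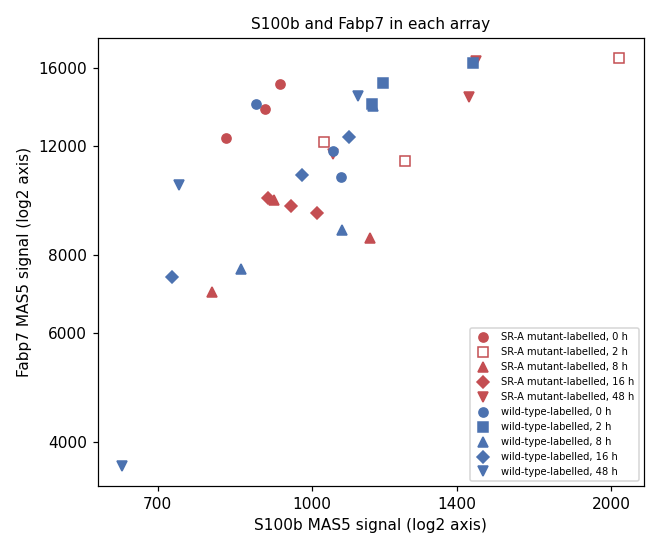
Fabp7 signal against S100b signal (MAS5, log2 axes) in each of the 30 arrays, by genotype label and time. Open symbols are the mutant-labelled 2 h arrays, which were left out of r = 0.70 (n = 27). The lowest point, a wild-type-labelled 48 h array, has 645 for S100b and 3668 for Fabp7.

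The relations of the myelin genes to this pair differed by probe set. Pmp22 gave r = 0.17 with S100b (permutation p = 0.4, adjusted 0.5) and -0.07 with Fabp7 (permutation p = 0.712, adjusted 0.791) over the same 27 arrays. The dimmer Mbp probe set gave r = 0.46 with Fabp7 and the brighter one -0.49, each with an adjusted permutation p of 0.0467, so that the Mbp probe sets differed in sign here as well. With S100b the dimmer one gave r = 0.39 (permutation p = 0.045, adjusted 0.112) and the brighter one -0.29 (permutation p = 0.139, adjusted 0.246). Between themselves the Mbp probe sets gave r = -0.28 (permutation p = 0.161, adjusted 0.246). For the deviations from the group means, pooled over the groups, the relations of Mbp to Fabp7 were smaller, with r = 0.27 and -0.34.

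As a description, the genes whose log2 signals followed each gene most closely over these 27 arrays, which share the tissue and the array type, were Rida, Crabp1 and Fggy for S100b (r = 0.751, 0.709 and 0.705). For Fabp7 they were Ect2, Rida and Galm (r = 0.812, 0.808 and 0.802), so Rida was near both. For Mbp, on its brighter probe set, they were Naa40, Elp3 and C1ra (r = 0.762, 0.74 and 0.739), and for Pmp22 Gpn2, Limch1 and Mthfd2 (r = 0.672, 0.669 and 0.622). With the mutant-labelled 2 h arrays included, r of Gpn2 with Pmp22 was -0.113 and r of Limch1 with Pmp22 was 0.0943. In the same way r of Crabp1 with S100b was 0.299 and r of C1ra with Mbp was 0.366. The other genes named here had r of 0.595 or more.

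Over the 10 groups the levels spanned less than 2.1-fold. The highest group mean was 2.06 times the lowest for the dimmer Mbp probe set (600 in wild-type-labelled arrays at 0 h, 291 in mutant-labelled arrays at 16 h), 1.8 times for Fabp7, 1.73 for S100b, 1.55 for Pmp22 and 1.46 for the brighter Mbp probe set. With the 10 group means put in order, neighbours differed by more than the larger of their SDs in 1 of 9 pairs for S100b (wild type at 2 h, 1261, over wild type at 8 h, 1024), 1 for Pmp22 (mutant at 2 h, 2255, over wild type at 8 h, 1987) and 1 for the dimmer Mbp probe set (wild type at 2 h, 548, over mutant at 48 h, 483). For the brighter Mbp probe set and Fabp7, 0 of 9 neighbouring pairs did. The Pmp22 pair was the only one in which the arrays did not overlap.

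In the other comparisons 0 of the 5 probe sets were called by limma. In the mutant-labelled arrays this held at 8 h (1.91% of all tested probe sets called), 16 h (3.65%) and 48 h (9.47%), with 1, 1 and 2 of the 5 at an unadjusted p under 0.05. In the wild-type-labelled arrays it held at 8 h (0.201%), with 1 at an unadjusted p under 0.05. Between genotypes it held at 0 h (18.3%), 8 h (2.94%) and 16 h (8.42%), with 1, 0 and 0. The largest difference at 0 h was in the dimmer Mbp probe set, -0.40 ± 0.19 (adjusted p = 0.141). The interaction of genotype and time, called for 14.7% of tested probe sets, had adjusted p of 0.0815 for the dimmer and 0.951 for the brighter Mbp probe set, 0.0843 for Pmp22, 0.183 for S100b and 0.313 for Fabp7.

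Other genes of the same cells were followed at 48 h, when 0 of the 5 probe sets in the mutant-labelled and 1 in the wild-type-labelled arrays were called. Of 40 genes of Schwann and ensheathing glia and their regulators, 33 were on the array and 21 were tested. At 48 h, 5 of the 21 rose and 2 fell in the mutant-labelled arrays (5.08% of 5396 tested genes rose and 5.17% fell), with a median change of 0.13 against 0.02 over all tested genes. In the wild-type-labelled arrays 4 rose and 3 fell (8.15% and 7.25% of all), with a median of 0.04 against -0.02.

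Apod, the lipid carrier apolipoprotein D, made by glia and fibroblasts, rose in both genotypes. Its signals in the mutant-labelled arrays were 30046, 33311 and 38198 at 48 h, against 15911, 16465 and 15053 at 0 h, and in the wild-type-labelled arrays 33509, 27384 and 26399 at 48 h, against 18553.5, 14159.7 and 18114 at 0 h. The groups did not overlap in either genotype. Apod rose by 1.09 ± 0.14 (adjusted p = 1.62e-05) in the mutant-labelled and 0.78 ± 0.14 (adjusted p = 0.00037) in the wild-type-labelled arrays.

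Erbb3, the receptor through which neuregulin from axons sustains Schwann cells, had signals of 5060.5, 4635.5 and 5088 at 48 h against 2836, 2828 and 3627 at 0 h in the mutant-labelled arrays. The wild-type-labelled arrays had Erbb3 signals of 6559.9, 4861 and 4882 at 48 h against 3597, 3333 and 3245 at 0 h. It rose by 0.68 ± 0.15 (adjusted p = 0.00539) in the mutant-labelled and 0.67 ± 0.15 (adjusted p = 0.0034) in the wild-type-labelled arrays, again without overlap.

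Sox10, the transcription factor that defines this glial lineage, had signals of 1424, 2228.5 and 2175 at 48 h against 1033, 1237 and 1119.7 at 0 h in the mutant-labelled arrays. The wild-type-labelled arrays had Sox10 signals of 1755.5, 1581 and 1610.4 at 48 h against 1190.1, 1289 and 1349.8 at 0 h. Sox10 rose by 0.76 ± 0.16 in the mutant-labelled arrays (adjusted p = 0.00368). In the wild-type-labelled arrays it was 0.37 ± 0.16 higher, which was not called (adjusted p = 0.119), though its arrays did not overlap. The difference between these changes was 0.39 ± 0.22 (adjusted p = 0.397). In a fit of only the 6 arrays compared, the adjusted p for Sox10 was 0.0772 in the mutant-labelled and 0.0489 in the wild-type-labelled arrays.

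**Figure D4:**
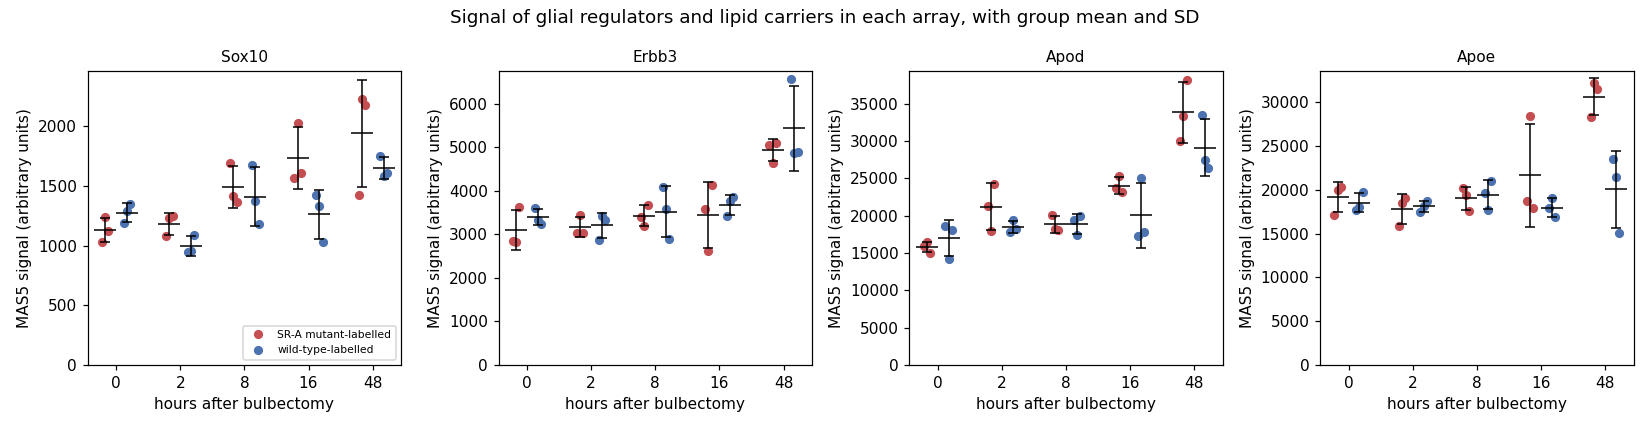
MAS5 signal (arbitrary units, linear axes from 0) of Sox10, Erbb3, Apod and Apoe against hours after bulbectomy, SR-A mutant-labelled arrays left of wild-type-labelled ones. Points are arrays, and bars are the group mean and SD (n = 3). At 48 h Erbb3 averages 4928 in the mutant-labelled and 5434 in the wild-type-labelled arrays, above the 0 h means of 3097 and 3392.

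Apoe, a lipid carrier of glia and macrophages, rose by 0.68 ± 0.15 in the mutant-labelled arrays (adjusted p = 0.00549), with signals of 28307, 32205 and 31495 at 48 h against 17174, 20003 and 20324 at 0 h. Apoe was 0.09 ± 0.15 higher at 48 h in wild-type-labelled arrays (adjusted p = 0.734). S100a6, a calcium-binding protein of the S100 family found in glia, fibroblasts and epithelia, rose by 0.84 ± 0.15 in the wild-type-labelled arrays (adjusted p = 0.000339) and was 0.04 ± 0.15 higher in the mutant-labelled arrays (adjusted p = 0.919). The change at 48 h differed between the genotypes by 0.59 ± 0.21 for Apoe, which was not called (adjusted p = 0.138), and by -0.80 ± 0.21 for S100a6 (adjusted p = 0.0342), and over all times neither was called in the interaction of genotype and time.

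Sparc, a secreted matrix protein of glia and fibroblasts, fell by 0.93 ± 0.20 at 48 h in the mutant-labelled arrays (adjusted p = 0.00539) and was -1.59 ± 0.20 in the wild-type-labelled arrays (adjusted p = 1.11e-05). Jun, a transcription factor of injured Schwann cells and of many other cells, fell by 0.95 ± 0.18 in the mutant-labelled arrays (adjusted p = 0.00165) and was -0.23 ± 0.18 in the wild-type-labelled arrays (adjusted p = 0.44). The changes of Sparc and Jun differed between the genotypes by 0.66 ± 0.29 (adjusted p = 0.24) and -0.72 ± 0.26 (adjusted p = 0.128). Mia and the adhesion molecule Ncam1 fell in the wild-type-labelled arrays, by 0.93 ± 0.28 (adjusted p = 0.0252) and 0.41 ± 0.12 (adjusted p = 0.0235). The falls of Mia and Ncam1 were held in 2 and 3 of 6 fits that left out 1 array. Ncam1 is also among the neuron and axon markers given below, and its fall is counted there as well.

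The listed genes are not confined to glia, and markers of other cells moved at 48 h. The summed signal of 8 macrophage markers averaged 25517 at 48 h against 18863 at 0 h in the mutant-labelled arrays and 25072 at 48 h against 14711.5 at 0 h in wild-type-labelled arrays. The sum of 10 neuron and axon markers averaged 96514 at 48 h against 115591 at 0 h in the mutant-labelled arrays, and 80274 at 48 h against 113163 at 0 h in wild-type-labelled arrays. Of these markers, 3 of 8 macrophage markers rose and 0 fell in each genotype, and 0 of 10 neuron and axon markers rose while 3 fell in the mutant-labelled and 6 in the wild-type-labelled arrays. Of all tested genes, 5.08% rose and 5.17% fell in the mutant-labelled arrays, and 8.15% rose and 7.25% fell in the wild-type-labelled arrays. The fibroblast markers, which went both ways, are given above for Pmp22. Their part in the changes of these genes was not tested. In whole tissue, fewer cells of a type and less RNA per cell cannot be told apart.

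Of 29 genes of myelin and its synthesis beside the members, 14 were on the array and 7 were tested. At 48 h none of the 7 was called in the mutant-labelled arrays, with a median change of -0.10 against 0.02 over all tested genes. In the wild-type-labelled arrays Cd9, a tetraspanin of myelinating glia and many other cells, rose by 0.52 ± 0.12 (adjusted p = 0.00313), and the median was 0.14 against -0.02. Cd9 was -0.11 ± 0.12 in the mutant-labelled arrays (adjusted p = 0.635), and the difference between these changes was -0.63 ± 0.16 (adjusted p = 0.0367). Mal and Cldn11, proteolipid and tight-junction proteins of myelin that epithelia also make, averaged signals of 1598 and 1919 over the 30 arrays and were called at 48 h against 0 h in neither genotype.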

How the data were processed

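Each array's deposited values were linear signal intensity units, made by the authors with MAS5, per the submitters' processing notes, which name no version. The 2% trimmed means lay between 1500.68 and 1500.86 in the 30 arrays, so the authors' scaling was read from the values. Precision is limited by the 3 arrays per group.

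Of 12488 probe sets 66 were array controls; 10833 had 1 gene in the platform annotation, 396 several and 1193 none. Signals under 113.7, the 25th percentile of all signals, were set to it before log2. Probe sets above the pooled median of 572 in 3 or more arrays were tested, 6968 in all; 6320 had 1 gene, standing for 5396 genes by their brightest probe set. All 10 group means were fitted in limma 3.58.1 (R 4.3.3), with two-sided p-values, Benjamini-Hochberg adjustment per contrast and an F-test for the interaction. The steps were tested on simulated data. Relations between genes used 100000 permutations (Python 3.11.15, scipy 1.17.1).

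The members, gene lists and tests were chosen with earlier results of these data known. All member probe sets were named. Of each gene list other than the cell markers, at most 3 genes per direction in each genotype were named for a change. They were those with the largest called change at 48 h in that genotype. The 3 nearest genes of each member were named by r over 27 arrays. Markers of each list were summed over their tested genes. Alternatives were no filter, a pseudocount of 16, quantile normalization, a replicate block, robust moderation with a variance trend, only the groups compared, no SR-A mutant 2 h arrays, and each array left out. Replicate 2 as the only SR-A mutant 2 h array and the difference of changes at single times were added after seeing the data.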

Additional observations from a re-analysis of the deposited data

Results flagged for a closer look

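Pmp22 changed differently between the genotypes at 2 h. Its change from 0 h was 0.53 ± 0.15 in the SR-A mutant-labelled arrays and -0.17 ± 0.15 in the wild-type-labelled arrays, a difference of 0.69 ± 0.22 (limma, adjusted p = 0.0436), where 10.6% of tested probe sets were called. This test of a single time was added after seeing the data, and over all times the interaction had an adjusted p of 0.0843. The 3 mutant-labelled 2 h arrays have the Gapdh 3' minus 5' differences of 5.59, 0.152 and 1.27, whose part in this difference was not tested. With replicate 2 as the only array of that group the difference was 0.64.

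The changes from 0 h to 48 h differed between the genotypes for 4 of the other genes named. The difference, SR-A mutant-labelled minus wild-type-labelled, was -0.63 ± 0.16 for Cd9 (adjusted p = 0.0367), -0.80 ± 0.21 for S100a6 (adjusted p = 0.0342), -2.17 ± 0.51 for S100a8 (adjusted p = 0.0215) and -2.10 ± 0.53 for S100a9 (adjusted p = 0.0318), where 2.86% of tested probe sets were called. Against 0 h, all 4 of these genes were not called in the mutant-labelled arrays and rose in the wild-type-labelled ones. These 48 h tests were also added after seeing the data. Over all times the interaction had an adjusted p of 0.0304 for Cd9, 0.0572 for S100a6, 0.0147 for S100a8 and 0.0236 for S100a9. With replicate 2 as the only mutant-labelled 2 h array the interaction had an adjusted p of 0.0466 for Cd9, 0.0801 for S100a6, 0.0214 for S100a8 and 0.0402 for S100a9. At 0 h S100a6 averaged 23410.0 in the mutant-labelled and 15638 in the wild-type-labelled arrays, and Cd9 averaged 11280.1 in the mutant-labelled and 9302 in the wild-type-labelled arrays.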

How the results depend on the processing

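The number of called probe sets among the 5 moved easily, while no called value changed sign. For SR-A mutant 2 h against 0 h, 2 were called. Without a filter (S100b, adjusted p = 0.0796) or with quantile normalization (S100b, 0.0532) 1 was called, and 0 with only the groups compared (S100b 0.232, Pmp22 0.131). Between genotypes at 2 h the 1 call of Pmp22 became 0 without a filter (0.0724) and with only the groups compared (0.153). At 48 h the 1 call of S100b became 0 without a filter (0.0621) and with only the groups compared (0.12), and there were 2 with quantile normalization, which added the dimmer Mbp probe set (0.59, 0.0448). Over all times the 1 call of the brighter Mbp probe set became 0 without a filter (0.0677), with quantile normalization (0.155) and with the replicate block (0.055). The difference of changes of Pmp22 at 2 h had an adjusted p of 0.0705 without a filter and 0.0583 with quantile normalization. Without a filter more probe sets enter the adjustment, and with only the groups compared fewer arrays estimate the spread; the other causes were not tested. The falls of the dimmer Mbp probe set at 16 and 48 h in wild type were called under each of these alternatives.

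With each array left out in turn, the calls ranged from 0 to 2 for SR-A mutant 2 h, 0 to 1 for SR-A mutant 48 h, 1 to 1 for wild type 16 h, 0 to 2 for wild type 48 h, 0 to 1 between genotypes at 0 h and 2 h, 0 to 3 at 48 h, 0 to 1 over all times and 0 to 1 for the interaction. At 2 h in the mutants S100b ranged from 0.36 to 0.85 and was called in 2 of 6 fits, and Pmp22 from 0.45 to 0.58 in 3 of 6; Pmp22 between genotypes ranged from 0.42 to 0.55 in 2 of 6. Without SR-A mutant 2 h replicate 1, S100b was 0.36 (adjusted p = 0.335) and Pmp22 0.45 (0.113). Calls appeared without SR-A mutant 0 h replicate 3 for the brighter Mbp probe set at 48 h (0.48, 0.0434) and between genotypes at 0 h (-0.44, 0.0483), and without wild type 48 h replicate 2 for the dimmer Mbp probe set (0.69, 0.0191) and Fabp7 (1.18, 0.0107) between genotypes at 48 h, and for the differences of changes at 48 h of the dimmer Mbp probe set (1.08, 0.0205) and S100b (1.10, 0.047).

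Some uncalled values changed sign: the brighter Mbp probe set at 2 h in the mutants, 0.18 with replicate 2 alone; the dimmer one at 2 h in the mutants, 0.036, and over all times, 0.030, with quantile normalization; Apoe at 48 h in wild type, -0.0070 with quantile normalization; and Pmp22 over all times, -0.075 without the SR-A mutant 2 h arrays. With single arrays left out, uncalled values that passed 0 ranged from -0.22 to 0.057 (Fabp7, mutants at 2 h), -0.079 to 0.17 (Fabp7, mutants at 48 h), -0.019 to 0.18 (Fabp7, all times), -0.97 to 0.016 (Fabp7, wild type at 48 h), -0.28 to 0.061 (brighter Mbp, mutants at 2 h), -0.039 to 0.25 (Pmp22, mutants at 16 h), -0.11 to 0.085 (Pmp22, mutants at 48 h), -0.029 to 0.19 (Pmp22, between genotypes at 48 h), -0.30 to 0.021 (Pmp22, wild type at 16 h), -0.24 to 0.052 (S100b, wild type at 16 h), -0.036 to 0.28 (Apoe, wild type at 48 h), -0.087 to 0.059 (Ncam1, mutants at 48 h) and -0.069 to 0.17 (S100a6, mutants at 48 h). With only the groups compared, Jun in the mutants (adjusted p = 0.0588) and Cd9 (0.0679), Ncam1 (0.102) and Mia (0.0673) in wild type were not called at 48 h, nor was Mia without a filter (0.0514).

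Counts over all tested probe sets (the percentages called) moved by over 1.5 times as well. With 1 array left out they did so in 54 of 138 fits, in 14 of 15 comparisons (not over all times). They ranged from 510 to 1573 against 1233 for SR-A mutant 2 h, 0 to 93 against 14 for wild type 8 h, 164 to 269 against 455 for wild type 16 h and 47 to 290 against 205 between genotypes at 8 h. With only the groups compared they were 31 against 1233 for SR-A mutant 2 h, 145 against 254 at 16 h, 204 against 660 at 48 h, 0 against 14 for wild type 8 h, 738 against 455 at 16 h, and 23 against 629, 14 against 205, 373 against 587 and 339 against 1136 between genotypes at 2, 8, 16 and 48 h. With replicate 2 alone they were lower at 2 h too, where 1 array in the group enlarges the standard error. Without the SR-A mutant 2 h arrays they were 132 against 40 for wild type 2 h, 477 against 205 between genotypes at 8 h and 415 against 1026 for the interaction. For wild type 2 h, where 40 were called, quantile normalization gave 104, the block 15 and the robust trend 71, and for wild type 8 h quantile normalization gave 22 against 14. Over all times 38.9% of calls were higher in the mutants, and 49.9% (1067 higher, 1072 lower) with quantile normalization. No comparison had all 3 correlations of same-numbered arrays over 0.1, so the numbers were not taken to pair the arrays, and the replicate block changed no other call of the 5 probe sets.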

Other observations

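The families of S100b and Fabp7 were followed beside them. Of 16 other S100 and fatty acid binding genes, 15 were on the array and 9 were tested. Of the 9, in wild-type-labelled arrays at 48 h, 6 rose and 1 fell (8.15% and 7.25% of all tested genes), and in the mutant-labelled arrays 1 rose and 1 fell (5.08% and 5.17%). The largest rises were those of S100a8 and S100a9, the calprotectin subunits of neutrophils, by 2.09 ± 0.36 (adjusted p = 0.000301) and 2.01 ± 0.38 (adjusted p = 0.000752) in the wild-type-labelled arrays, while in the mutant-labelled arrays S100a8 was -0.08 ± 0.36 (adjusted p = 0.932) and S100a9 -0.10 ± 0.38 (adjusted p = 0.924). S100a13 rose in both, by 0.43 ± 0.14 (adjusted p = 0.0446) in the mutant-labelled and 0.95 ± 0.14 (adjusted p = 3.68e-05) in the wild-type-labelled arrays, with 1 of its 2 other probe sets at 0.05 (adjusted p = 0.78) and 0.07 (adjusted p = 0.637). S100a3 fell in both, by 0.41 ± 0.12 (adjusted p = 0.0269) in the mutant-labelled and 0.55 ± 0.12 (adjusted p = 0.0024) in the wild-type-labelled arrays. S100b itself was called at 48 h against 0 h in neither genotype.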
